A study of Mus musculus with 11 samples.

Results

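The 6 genes described here are *Gli1*, *Gli2*, *Gli3*, *Smo*, *Sufu* and *Kif7*, the core of the Hedgehog (Hh) response inside the receiving cell. They were chosen by symbol, and all 6 were found among the 16755 genes of the deposited table. RNA came from whole maxillary molar tooth germs of C57BL/6 mouse embryos at embryonic day 14.5 (E14.5), with n = 6 pooled per biological replicate, and the sources do not say whether 6 counts germs or embryos. There were 4 wild-type (*Cilk1*+/+, WT) libraries, 4 *Cilk1*-/- libraries and 3 *Cilk1*-/-;PCS1-MRCS1 del/del libraries. *Cilk1* encodes a kinase of the primary cilium, and its exon 6 was removed in the germ line by crossing floxed mice with EIIa-Cre mice, so all cells of the embryo carry the deletion. The third genotype, called the compound mutant here, carries the same *Cilk1* deletion together with a 70 kb deletion from PCS1 to MRCS1, a region with oral enhancers of *Shh*. A group with the 70 kb deletion alone was not analysed here, so the effect of that deletion is seen only on the *Cilk1*-/- background. The comparisons ask how the level of each gene differed in *Cilk1*-/- and in the compound mutant from WT, and between the mutants.

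Hh ligand binds the receptor Ptch1 and releases Smo, a membrane protein that then acts at the primary cilium. Sufu holds the Gli transcription factors back in the cytoplasm, and Kif7, a kinesin of the ciliary tip, tunes their processing. Gli2 is the main activator, Gli3 acts largely as a repressor when cut to its short form, and Gli1 is an activator whose own gene is switched on by the pathway, so that its RNA is a common readout of Hh activity. In the molar, *Shh* is made by the dental epithelium, and the mesenchyme and epithelium around the source respond. RNA levels say nothing of the cutting, location or phosphorylation of these proteins.

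The genes lie on different chromosomes in GRCm38 (GENCODE vM21): *Gli1* on chromosome 10 (127329882 to 127341974, minus strand), *Gli2* on chromosome 1 (118834132 to 119053619, minus strand), *Gli3* on chromosome 13 (15463235 to 15730026, plus strand), *Smo* on chromosome 6 (29735503 to 29761365, plus strand), *Sufu* on chromosome 19 (46396896 to 46488804, plus strand) and *Kif7* on chromosome 7 (79698098 to 79715720, minus strand). The principal coding transcripts span 3333 coding bases for *Gli1*, 4632 for *Gli2*, 4749 for *Gli3*, 2379 for *Smo*, 1452 for *Sufu* and 4041 for *Kif7*. The Gli genes are paralogs that share a zinc finger region, the part that binds DNA. The stretch most alike among them is printed, because a read without mismatches is shared by paralogs only where they are identical over its length. Reads placed with mismatches were not examined. The search found 5 C2H2 zinc finger patterns in each gene, over 453 coding bases. In that block, *Gli1* and *Gli2* were identical at 81.5% of the bases, *Gli2* and *Gli3* at 80.8%, and *Gli1* and *Gli3* at 75.9%. The stretch lies in coding exons, within chr10:127333724-127334213 for *Gli1*, chr1:118842123-118844365 for *Gli2* and chr13:15715100-15720129 for *Gli3*, spans that include intron bases removed from the transcript. Sequences are from GENCODE transcripts, on the strand of the gene, with capitals at the 17 of 90 bases that are not the same in all 3 genes.
Gli1: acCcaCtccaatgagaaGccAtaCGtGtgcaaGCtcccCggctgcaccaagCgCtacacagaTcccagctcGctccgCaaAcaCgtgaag
Gli2: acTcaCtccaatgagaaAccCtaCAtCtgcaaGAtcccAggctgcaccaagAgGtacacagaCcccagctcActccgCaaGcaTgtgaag
Gli3: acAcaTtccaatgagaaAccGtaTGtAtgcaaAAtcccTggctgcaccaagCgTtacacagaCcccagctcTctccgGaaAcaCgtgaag
Even here no run of identical bases was long. The longest run shared by any transcript of *Gli1* and *Gli2* was 23 bases, against 14 for *Gli1* and *Gli3* and 25 for *Gli2* and *Gli3*, and no pair shared a run of 31 bases. *Kif7* and its paralog *Kif27* shared at most 17 bases. Overlap with other genes was a separate matter, since the strand setting of the counting is not given in the sources used here. Exons of *Gli1* overlap those of genes on the opposite strand by up to 265 bases, and *Arhgap9*, one of them, was low at 0.65 to 1.05 on the log2 scale over all libraries. Exons of *Gli3* overlap those of other genes by up to 188 bases, and the genes it overlaps lie on both strands. Exons of *Kif7* overlap its neighbours by up to 877 bases, and *Ticrr*, on the opposite strand, was at 2.48 to 2.94, and without strand, reads in an overlap cannot be told apart.

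The deposited values are on the log2(value + 1) scale of a per-length normalized value, probably FPKM, and levels below are on that log2 scale unless a linear value is named. Counts were not used here, so depth is unknown, and the error of a value is the spread over the libraries of its genotype. *Cilk1*, listed as *Ick*, averaged 3.53 ± 0.0751 in the 4 WT libraries, 2.80 ± 0.0661 in the 4 of *Cilk1*-/- and 2.64 ± 0.0317 in the 3 compound mutant libraries (SD). In linear values this was 56.5% and 49.7% of WT, and since exons other than exon 6 also count, the value follows the labels without reaching 0. All 6 dental epithelium markers and all 8 dental mesenchyme markers were listed. Compound mutant replicate 1 stood apart on the first principal component (41.6% of the variance), at −48.5 against −6.63 to 11.2 for the other 10 libraries. Replicate 3 of that genotype stood apart on the second component (21.8%), at −28.9 against −11.8 to 13.5 for the other 10. WT and *Cilk1*-/- libraries with the same number were not independent, because their deviations from the genotype means ran in opposite directions (correlations over genes of −0.74 to −0.89). If an adjustment by replicate number was made before deposit, which the sources used here do not state, SDs, SEs and p-values without a block term describe the adjusted values and not the spread between separate samples. The labels carry one protocol text for replicates 1 to 3 of WT and *Cilk1*-/- (6 libraries) and another for replicate 4 of both and the compound mutant (5 libraries), so that 1 WT library shares its text with the compound mutant. Where a block term for the replicate number changes a call of the 6 genes or of a pathway gene, its value follows. For marker genes it is not given.

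In the WT molar *Gli1* was the most abundant of the 6, at 92.7 ± 7.07 (linear value, SD, n = 4), above 96.9% of the listed genes. *Smo* followed at 67.3 ± 3.50, then *Sufu* at 21.6 ± 1.03, *Gli3* at 19.1 ± 1.56, *Gli2* at 13.8 ± 1.56 and *Kif7* at 11.3 ± 0.287. Neighbours in this order did not overlap between libraries except *Sufu* and *Gli3*, although *Sufu* was above *Gli3* within each of the 4 libraries. In *Cilk1*-/- and in the compound mutant, *Smo* was first and *Gli1* second in every library. *Gli3* stood above *Sufu* in all 4 *Cilk1*-/- libraries and below it in all 3 compound mutant libraries, with overlapping ranges both times. *Gli2* and *Kif7* closed the order, overlapping in both mutants.

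**Figure D1:**
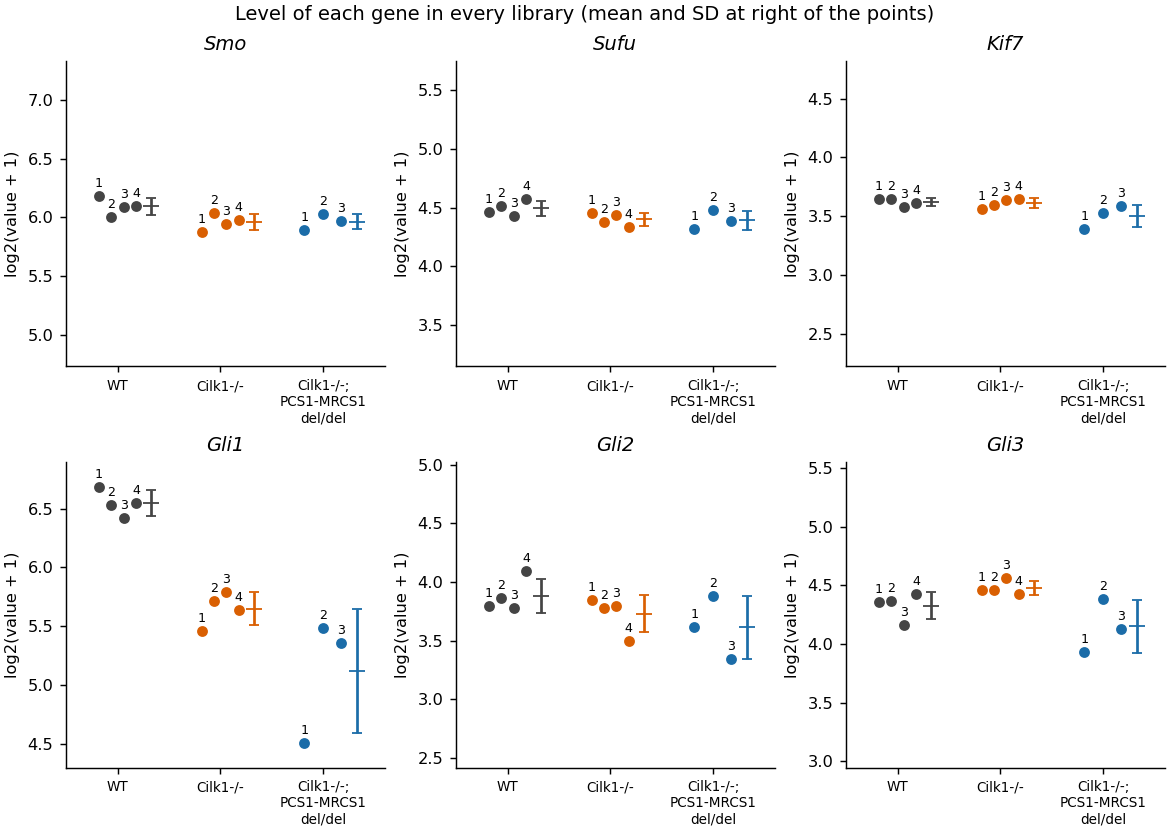
Level of each of the 6 genes, as log2(value + 1), in every library of the 3 genotypes, with replicate numbers over the points and the mean and SD at their right; each panel spans the same range of 2.6 log2 units. *Gli1* alone shows a WT group (6.42 to 6.68) that lies clear above both mutants (4.51 to 5.79).

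*Smo*, the transducer at the membrane, was not called in either mutant. Its level was 6.19, 6.00, 6.09 and 6.09 in WT replicates 1 to 4, 5.87, 6.04, 5.94 and 5.97 in *Cilk1*-/- and 5.90, 6.03 and 5.97 in the compound mutant. For *Smo*, 3 of 4 *Cilk1*-/- libraries and 2 of 3 compound mutant libraries lay below the lowest WT library. The difference from WT was −0.14 (95% interval −0.25 to −0.02, adjusted p = 0.166, limma) in *Cilk1*-/- and −0.13 (−0.25 to −0.01, adjusted p = 0.169) in the compound mutant, and a 1.5-fold change lies outside both intervals. Between the mutants it was 0.01 (−0.12 to 0.13, adjusted p = 0.960).

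*Sufu*, the cytoplasmic brake on the Gli proteins, was 4.46, 4.52, 4.43 and 4.58 in WT, 4.45, 4.38, 4.44 and 4.34 in *Cilk1*-/- and 4.32, 4.48 and 4.38 in the compound mutant. The 3 groups overlapped. Differences from WT were −0.09 (−0.20 to 0.01, adjusted p = 0.303) and −0.10 (−0.21 to 0.01, adjusted p = 0.239), and that between the mutants was −0.01 (−0.12 to 0.11, adjusted p = 0.959). *Kif7*, the ciliary kinesin, had the smallest SD of the 6 genes in WT and in *Cilk1*-/-, at 3.65, 3.65, 3.57 and 3.61 in WT and 3.56, 3.60, 3.64 and 3.65 in *Cilk1*-/-. The difference in *Cilk1*-/- was −0.01 (−0.11 to 0.09, adjusted p = 0.941). In the compound mutant *Kif7* was 3.39, 3.52 and 3.59, and the first and second of these lay below every WT and every *Cilk1*-/- library. The difference was −0.12 from WT (−0.23 to −0.01, adjusted p = 0.158) and −0.11 from *Cilk1*-/- (−0.22 to −0.00099, adjusted p = 0.212). Without compound mutant replicate 1 the differences from WT were −0.063 for *Sufu* and −0.066 for *Kif7*, and that of *Kif7* from *Cilk1*-/- was −0.056. None of *Smo*, *Sufu* and *Kif7* was called by limma in any comparison. At an unadjusted p under 0.05 against WT stood *Smo* in both mutants and *Kif7* in the compound mutant, as did 20.7% of all genes in *Cilk1*-/- and 26.7% in the compound mutant.

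*Gli1* was the only one of the 6 genes called, lower in both mutants. It was 6.68, 6.53, 6.42 and 6.55 in WT, 5.46, 5.72, 5.79 and 5.64 in *Cilk1*-/- and 4.51, 5.48 and 5.36 in the compound mutant. Every library of either mutant lay below every WT library, a separation that 10.7% of all genes showed in this direction in *Cilk1*-/- and 9.05% in the compound mutant. In linear values the means were 92.7 ± 7.07, 49.4 ± 4.85 and 35.2 ± 11.8 (SD), which made 53.3% and 37.9% of WT. In bulk RNA, fewer responding cells and less *Gli1* RNA per cell cannot be told apart.

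The fall of *Gli1* in *Cilk1*-/- was −0.90 (SE 0.179, adjusted p = 0.0343), and in the compound mutant it was −1.43 (SE 0.193, adjusted p = 0.00500), in limma's test with the Benjamini-Hochberg adjustment over all 16755 genes. To be called, a gene had to pass an adjusted p of 0.05 and to differ by 1.5-fold or more. Of all genes, 0.215% were called lower and 0.155% higher in *Cilk1*-/-, and 0.633% were called lower and 0.615% higher in the compound mutant. These comparisons share the WT libraries and are not independent of each other. With the replicate block the adjusted p was 0.149 in *Cilk1*-/-, so the call was lost there, and 0.0473 in the compound mutant. That block joins compound mutant replicates 1 to 3 to same-numbered WT and *Cilk1*-/- libraries, which carry another protocol text. Their deviations did not mirror each other, with correlations of 0.14, −0.04 and 0.26 with WT and 0.03, 0.04 and −0.12 with *Cilk1*-/-. Whether this block suits the compound mutant was not tested. The *Cilk1*-/- call was also lost without any one of the 4 WT or the 4 *Cilk1*-/- libraries (adjusted p = 0.0712 to 0.107), while the difference stayed between −0.94 and −0.83. A limma fit of only WT and *Cilk1*-/- kept the call (−0.90, SE 0.0774, adjusted p = 0.000866). The fit of all 3 genotypes also takes in the spread of the compound mutant. The SD of *Gli1* was 0.530 there, against 0.108 in WT and 0.143 in *Cilk1*-/-. Neither of these fits has a block term. The compound mutant call was lost in a fit of only the compound mutant and WT (adjusted p = 0.0576) and with the protocol text as a term (0.0850). It was also lost with the compound mutant libraries under number 4 of the block (0.470), a setting chosen after seeing the data.

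**Figure D2:**
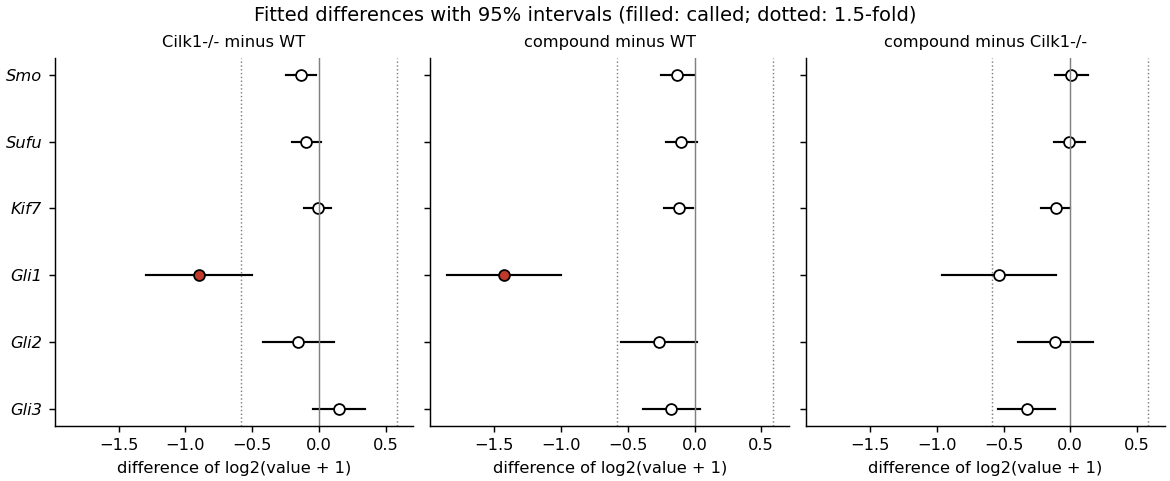
Fitted difference of log2(value + 1) for each gene (points) with its 95% interval (lines) in the 3 comparisons; filled points were called and dotted lines mark a 1.5-fold change. Only *Gli1* was called, at −0.90 and −1.43 against WT, and the intervals of *Smo*, *Sufu* and *Kif7* stay inside the dotted lines in each comparison.

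Between the mutants *Gli1* differed by −0.53 (95% interval −0.96 to −0.10, adjusted p = 0.140), which did not pass the test. Compound mutant replicates 1 and 3 were below the lowest *Cilk1*-/- library and replicate 2 was just above it. Without replicate 1 the difference was −0.23 (adjusted p = 0.218). In this comparison limma called 0 of the 6 genes, and 3 of them (*Gli1*, *Gli3* and *Kif7*) had an unadjusted p under 0.05, as had 23.2% of all genes. Of all genes, 0.388% were called lower and 0.155% higher here. The marker sums of that replicate (linear values) also stood apart, at 489 for dental mesenchyme against 762 to 860 in WT, 471 for dental epithelium against 807 to 1019, 591 for cartilage against 21.6 to 27.0 and 213 for neurons against 17.4 to 23.6. Compound mutant replicate 2, with a mesenchyme sum of 806, within the WT range, and an epithelium sum of 696, had *Gli1* at 43.7 in linear value, below the lowest WT library at 84.5. Replicate 3 had a mesenchyme sum of 547, also below WT, an epithelium sum of 1104 and *Gli1* at 40.0. All 8 mesenchyme markers had a negative difference from WT in the compound mutant (median −0.47), and 6 of 8 in *Cilk1*-/- (median −0.13). In *Cilk1*-/- the mesenchyme sums were 685 to 800. No marker of the 8 mesenchyme and 6 epithelium genes was called in any comparison or was at 0 in any library, and the part of tissue makeup in the *Gli1* difference was not tested. Neuron sums were also above WT in every *Cilk1*-/- library (29.4 to 36.3), as were those of Schwann cells and glia (20.8 to 23.7 against 17.6 to 19.9 in WT). Skeletal muscle sums were below WT in every compound mutant library (4.99 to 6.51 against 7.96 to 24.3). Neuron and cartilage sums were above WT in every compound mutant library, at 34.0 and 62.6 for neurons and 42.1 and 36.2 for cartilage in replicates 2 and 3, so they moved with the *Gli1* difference in the whole group, and their part in it was not tested. Of these lists the neuron genes *Tubb3* (1.503) and *Isl1* (0.95) were called higher in the compound mutant than in WT, as was *Cdkn1a* (1.11) of the enamel knot list. The muscle genes *Acta1* (−1.71), *Actc1* (−2.35) and *Myh3* (−1.52) were called lower in the compound mutant than in *Cilk1*-/-. With the replicate block only 2 of all genes were called lower between the mutants, so not all of these muscle calls held. In the compound mutant against WT 7 of all genes were called higher with it, and the block values of *Tubb3*, *Isl1* and *Cdkn1a* are not given here. No marker of any list was called in *Cilk1*-/- against WT by limma, and the sums of enamel knot, erythroid, macrophage, endothelium, bone and oral keratinization markers overlapped WT in both mutants. Single compound mutant libraries still lay far outside WT. Replicate 3 had sums of 759 for erythroid cells (2189 to 2798 in WT), 145 for enamel knot (43.3 to 69.4) and 137 for oral keratinization (28.6 to 65.1). Replicate 2 had a bone sum of 222 (44.5 to 142 in WT). Their part in the *Gli1* difference was not tested.

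*Gli2*, the main activator, was 3.79, 3.86, 3.78 and 4.09 in WT, 3.84, 3.78, 3.79 and 3.50 in *Cilk1*-/- and 3.62, 3.88 and 3.35 in the compound mutant. The groups overlapped, with WT replicate 4 highest of all 11 libraries. Differences from WT were −0.15 (−0.42 to 0.11, adjusted p = 0.507) and −0.26 (−0.55 to 0.02, adjusted p = 0.213), and that between the mutants was −0.11 (−0.40 to 0.17, adjusted p = 0.638). Single libraries moved the compound mutant value: it was −0.40 against WT without replicate 2 (adjusted p = 0.0477, short of a 1.5-fold change) and −0.13 without replicate 3 (adjusted p = 0.505). Between the mutants the difference ran from −0.24 to 0.023 when single libraries were left out, so its direction was not fixed. The *Cilk1*-/- difference was −0.082 without WT replicate 4 and −0.076 without *Cilk1*-/- replicate 4: the 3 pairs under the first protocol text differed by −0.0050 on average, and the pair under the second differed by −0.60. The difference between the texts, with 1 library of each genotype under the second, was not tested.

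*Gli3*, the main repressor, was not called in any comparison. Its level was 4.35, 4.36, 4.16 and 4.43 in WT, 4.46, 4.46, 4.56 and 4.43 in *Cilk1*-/- and 3.94, 4.39 and 4.13 in the compound mutant. The differences from WT were 0.15 (−0.05 to 0.35, adjusted p = 0.368) and −0.17 (−0.39 to 0.04, adjusted p = 0.266). The *Cilk1*-/- value was 0.096 without WT replicate 3. The compound mutant value was −0.067 without compound mutant replicate 1 (adjusted p = 0.683) and −0.29 without replicate 2 (adjusted p = 0.0329, short of a 1.5-fold change). All 3 compound mutant libraries lay below all 4 *Cilk1*-/- libraries, as did 9.30% of all genes, and the difference of −0.33 (−0.54 to −0.11) had an adjusted p of 0.0856. Its adjusted p was 0.0133 without compound mutant replicate 2, when the difference was −0.44, still short of a 1.5-fold change.

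The makeup of the Gli RNA pool differed between WT and the mutants in the linear values. *Gli1* made up 75.9%, 73.5%, 74.1% and 71.7% of the summed Gli level in WT, 55.5%, 60.4%, 60.5% and 61.3% in *Cilk1*-/-, and 46.0%, 56.5% and 60.9% in the compound mutant. *Gli3* held 14.5 to 15.9% in WT, 24.7 to 27.2% in *Cilk1*-/- and 25.2 to 30.2% in the compound mutant, while *Gli2* held 9.60 to 12.4%, 12.9 to 17.3% and 14.0 to 23.8%. No share overlapped between WT and either mutant, and those of the mutants overlapped each other. The shares are parts of one sum, so a lower *Gli1* level by itself raises those of *Gli2* and *Gli3*, and neither gene was called. The summed level was 126 ± 8.55 in WT, 83.0 ± 5.62 in *Cilk1*-/- and 63.5 ± 15.2 in the compound mutant (SD).

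**Figure D3:**
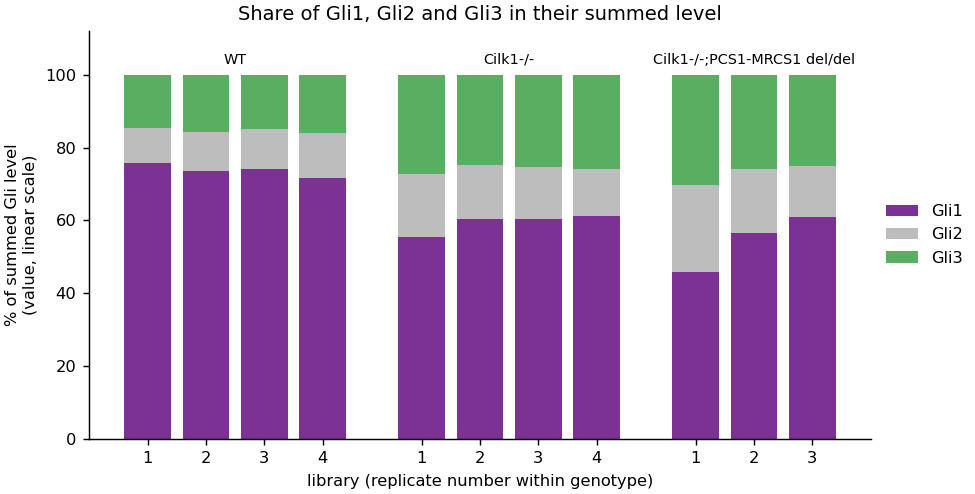
Share of *Gli1*, *Gli2* and *Gli3* in their summed level (linear values, percent) in each library, grouped by genotype. The *Gli1* share is 71.7 to 75.9% in the 4 WT libraries and 46.0 to 61.3% in the 7 mutant libraries.

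Whether *Gli1* fell by more than the others was tested directly, library by library, as the *Gli1* level minus that of each other gene. *Gli1* minus *Smo* was 0.50, 0.53, 0.33 and 0.46 in WT, −0.42, −0.32, −0.15 and −0.33 in *Cilk1*-/- and −1.39, −0.54 and −0.61 in the compound mutant. *Gli1* thus went from above *Smo* in every WT library to below it in every mutant library. *Gli1* minus *Gli2* was 2.46 to 2.89 in WT, 1.61 to 2.14 in *Cilk1*-/- and 0.89 to 2.01 in the compound mutant, and *Gli1* minus *Gli3* was 2.12 to 2.33, 0.996 to 1.25 and 0.57 to 1.23. The change of *Gli1* minus that of another gene lay between −0.74 (*Gli2*) and −1.05 (*Gli3*) in *Cilk1*-/-, and between −1.17 (*Gli2*) and −1.33 (*Sufu*) in the compound mutant. Each of these 10 differences against WT had p = 0.0286 in a two-sided exact permutation test, the smallest this design allows, and 0.0390 after adjustment over the 15 differences tested. Swapping only the same-numbered WT and *Cilk1*-/- libraries gave an exact p of 0.125, again the smallest possible, which cannot pass 0.05. Between the mutants, only the difference from *Smo* passed (−0.54, exact p = 0.0286, adjusted 0.0390), and it was −0.27 without compound mutant replicate 1, where 2 libraries against 4 cannot give an exact p under 0.0667. That adjusted value is this low because the 10 differences against WT stand at the same smallest p among the 15. An adjustment over the tests between the mutants alone was not made. The others had exact p = 0.0571 (*Sufu* and *Kif7*), 0.257 (*Gli2*) and 0.314 (*Gli3*).

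The difference between libraries of one number gives the same contrast pair by pair. For *Gli1*, *Cilk1*-/- minus WT was −1.23, −0.82, −0.63 and −0.91 for numbers 1 to 4, lower in 4 of 4. The mean was −0.89 under the first protocol text (3 pairs) and −0.91 under the second (1 pair). *Gli3* was higher by 0.10, 0.10 and 0.40 for numbers 1 to 3 and differed by −0.00074 for number 4. *Smo* was lower in 3 of 4 pairs, and *Sufu*, *Gli2* and *Kif7* were lower in 3, 2 and 2 of 4. Under the second text, the compound mutant mean of *Gli1* differed from the 1 WT library by −1.43 and from the 1 *Cilk1*-/- library by −0.52.

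**Figure D4:**
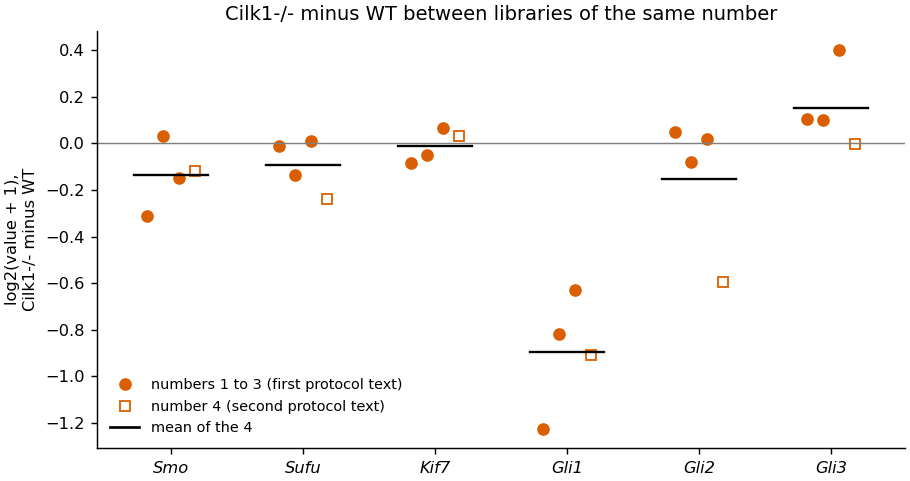
*Cilk1*-/- minus WT in log2(value + 1) between libraries of the same number for each gene, with filled circles for numbers 1 to 3, open squares for number 4 and a line at the mean. All 4 values of *Gli1* (−1.23 to −0.63) lie below zero, and the −0.60 of *Gli2* at number 4 lies apart from its other values (−0.08 to 0.05).

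The other genes of the pathway were taken from a list ordered by role, of which 62 of 66 are in the table, of which *Cilk1*-/- had 3 called lower, the compound mutant had 6, and 0 were called higher in either. At an unadjusted p under 0.05, 13 of the 62 were lower and 2 higher in *Cilk1*-/-, and 19 were lower and 10 higher in the compound mutant, where 20.7% and 26.7% of all genes had such a p in either direction. The median difference of the 62 was −0.05 and −0.02, against 0.0032 and −0.0016 over all genes. The genes called were targets. *Ptch1*, the receptor and itself a target, fell by 0.89 in *Cilk1*-/- (adjusted p = 0.0374) and 1.66 in the compound mutant (adjusted p = 0.00284). *Foxf2* and *Foxl1*, forkhead factors of the mesenchyme, were lower in both mutants, *Foxf2* by −1.31 and −1.69 and *Foxl1* by −0.75 and −0.88. *Hhip*, a ligand-binding antagonist, and *Foxd1*, another forkhead factor, were called in the compound mutant alone (−0.94 and −0.86), as was *Sostdc1*, an extracellular inhibitor of Bmp and Wnt signaling (−1.31). In *Cilk1*-/- *Hhip* had an adjusted p of 0.0450 at −0.45 (0.186 with the replicate block), short of a 1.5-fold change. *Sostdc1* (−0.74, adjusted p = 0.0545) and *Foxd1* (−0.66, adjusted p = 0.0736) differed there by more than 1.5-fold and missed the adjusted p. Whether *Hhip*, *Foxd1* and *Sostdc1* differ more in the compound mutant than in *Cilk1*-/- is a separate test. Between the mutants 0 pathway genes were called by limma, with 8 lower and 7 higher of the 62 at an unadjusted p under 0.05, as 23.2% of all genes had in either direction. In that comparison *Hhip* (−0.49, adjusted p = 0.0405), *Efcab7* (−0.38, adjusted p = 0.0476) and *Adrbk1* (0.22, adjusted p = 0.0145) passed the adjusted p and were short of a 1.5-fold change. With the replicate block none of them passed, at adjusted p of 0.215, 0.237 and 0.191 in that order. Against WT the others of this kind were *Adrbk1* (−0.15) and *Kctd21* (0.26) in *Cilk1*-/-. In the compound mutant they were *Gpr161* (−0.32), *Bcl2* (−0.33), *Csnk1e* (0.21), *Spop* (0.22) and *Kctd21* (0.22). These did not pass with the replicate block either (adjusted p = 0.135 to 0.247). Under the replicate block none of the *Cilk1*-/- calls held (adjusted p = 0.0846 for *Foxf2*, 0.149 for *Ptch1* and *Foxl1*), and *Foxl1* (0.0871) and *Foxd1* (0.125) were lost in the compound mutant. *Ptch1*, *Gli1*, *Hhip*, *Sostdc1*, *Foxf2* and *Foxl1* had been picked by the study on these samples, so their direction is not independent evidence.

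Steps upstream of and around the 6 genes showed no called gene outside the targets. Among 8 ligand and release genes the differences ran from −0.22 to 0.33 in *Cilk1*-/- and from −0.05 to 0.54 in the compound mutant, with *Scube3*, a secreted helper of ligand release, the most abundant (5.07 in WT). *Shh*, the ligand, was 4.76 ± 0.426 in WT, 5.10 ± 0.383 in *Cilk1*-/- and 4.73 ± 1.55 in the compound mutant (SD), and the wide spread of the last group leaves its difference from WT unresolved (−0.03, SE 0.568). Of 11 genes that regulate Smo at the cilium 10 were listed, at −0.15 to 0.12 and −0.32 to 0.18, led in level by *Mgrn1* (5.04 in WT), a ubiquitin ligase. The 16 genes of Gli processing, phosphorylation and turnover were within −0.06 to 0.10 in *Cilk1*-/- and −0.22 to 0.34 in the compound mutant, led by *Csnk1a1* (6.93 in WT), a kinase that phosphorylates Gli proteins. Of 10 Gli partners 8 were listed, at −0.16 to 0.26 and −0.06 to 0.28, led by *Ski* (5.64 in WT), a corepressor. The 16 listed targets had medians of −0.43 and −0.45, with 14 and 15 of the 16 below zero.

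**Figure D5:**
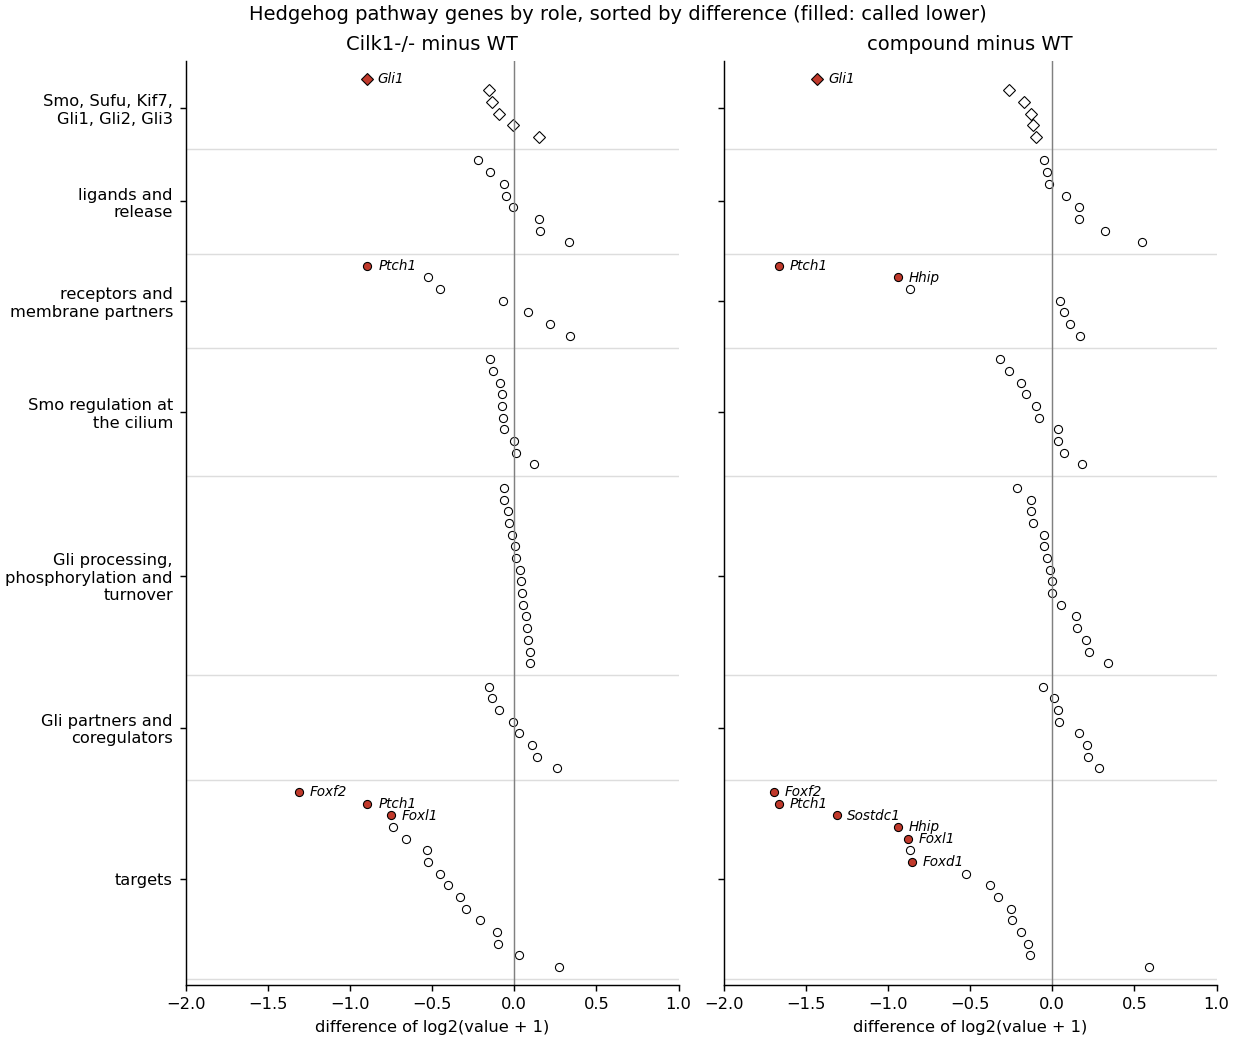
Difference of log2(value + 1) from WT for the 6 genes (diamonds) and the other listed pathway genes (circles) by role, sorted within each role, in *Cilk1*-/- and the compound mutant; filled symbols were called lower, and a gene with more than one role appears under each. The called genes are *Gli1* and targets, and *Foxf2* has the lowest value in both panels (−1.31 and −1.69).

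The genes most like *Gli1* over the 11 libraries, by Pearson correlation of log2 values among 13028 genes with a mean of at least 1, were *Sostdc1* (0.99), *Fzd10*, a Wnt receptor (0.98), *Kntc1*, a kinetochore protein (0.98), *Adcy7*, an adenylate cyclase (0.97), and *Col6a2*, a collagen chain (0.96). Without compound mutant replicate 1 these were 0.94 to 0.98, and for deviations from the genotype means they were 0.82 to 0.97. These are descriptions over libraries that share genotype, pool and number. Over all 11 libraries *Gli1* correlated at 0.78 with *Smo*, 0.76 with *Kif7*, 0.70 with *Sufu*, 0.53 with *Gli2* and 0.43 with *Gli3*. Without compound mutant replicate 1 these were 0.75, 0.50, 0.58, 0.52 and −0.097 in the same order, so the values for *Kif7* and *Gli3* rested on that library. For deviations from the genotype means they were 0.62, 0.86, 0.48, 0.063 and 0.80, and that of *Kif7* was above those of *Kntc1* (0.84) and *Adcy7* (0.82). The deviations include compound mutant replicate 1, and how far their correlations rest on that library was not tested. *Gli2* was most like *Klhdc3* (0.96), *Hist1h3h* (0.96) and *Emd* (0.96), *Gli3* like *Pou3f3* (0.96), *Elac1* (0.96) and *Plcb1* (0.96), and *Smo* like *Snord16a* (0.95), *Gprc5b* (0.95) and *Dld* (0.95). *Sufu* was most like *Maml1* (0.97), *Tacc2* (0.96) and *Rab35* (0.96), and *Kif7* like *Ntng1* (0.97), *Fam115c* (0.96) and *Acp6* (0.95).

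The Gli binding motif GACCACCCA was sought on both strands of RefSeq promoters (GRCm38.p6, 300 bases from 250 before to 50 after the start). It was in 0.253% of all 32851 promoters. None of the promoters of *Gli2*, *Gli3*, *Smo*, *Sufu* and *Kif7*, and none of the 67 promoters of the other pathway genes that had an entry (45 of 66 genes), held these letters in this window. *Gli1* was not searched.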

How the data were processed

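The authors mapped paired-end poly-A reads to mm10 (HISAT2 2.0.5 in the submitters' processing notes), counted them per gene with featureCounts 1.5.0-p3 and calculated FPKM values. The deposited values are on a log2 scale, as log2(value + 1), for 16755 genes in 11 libraries. Of these values 328, in 257 genes, are below 0, so a further step was applied before deposit that the sources used here do not describe. Turned back to linear values (2 to the value, minus 1) they sum to 339971 to 364616 per library.

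Since no counts were used, limma 3.58.1 (R 4.3.3; lmFit, eBayes with trend and robust) replaced the edgeR test of the study's methods, in one fit of the 3 genotypes without covariates, with Benjamini-Hochberg adjustment over all genes and no filter. Calls followed the study's thresholds of 0.05 (adjusted p) and 1.5 (fold change). Tested on simulated data with 200 of 16755 genes changed by 1 log2 unit, the fit found 192 (4 false calls) for *Cilk1*-/- against WT, and 190 (2 false calls) for the compound mutant against WT. The libraries simulated were independent, which the deposited ones are not. Each gene had the same spread in all 3 genotypes, while the deposited *Gli1* values had an SD of 0.530 in the compound mutant and 0.108 in WT. Changed genes were not drawn from those of low level. The rates found therefore need not hold for the deposited values. Differences between genes used exact permutation tests (SciPy 1.17.1). P-values measure the spread between the deposited values of pooled samples, which may not be that of the samples themselves: an adjustment for the replicate number or a batch may have been made before deposit, and this was not tested.

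The 6 genes and all lists were chosen with earlier results of these data known. Named genes are the 6, *Cilk1*, pathway genes called in any comparison, the most abundant pathway gene of each role, and the 5 genes most like *Gli1* and 3 most like each other gene, with *Shh*, *Arhgap9*, *Ticrr* and *Kif27* named for context. Called marker genes, and pathway genes that passed the adjusted p but not the fold change, were named after their values were seen. Markers of the dental tissues and of 10 other cell types or structures were summed per library in linear values. Same-numbered WT and *Cilk1*-/- libraries deviated in opposite directions (correlations −0.74, −0.89, −0.85 and −0.79 for numbers 1 to 4), and the numbers were therefore taken to pair them. Positions come from GENCODE vM21. The figures were drawn with matplotlib 3.10.9.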

Additional observations from a re-analysis of the deposited data

How the results depend on the processing

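The fall of *Gli1* kept its direction under all 20 alternatives in each comparison. In *Cilk1*-/- its adjusted p was 0.0690 with the protocol text as a term, 0.149 with the replicate block and 0.316 with the compound mutant libraries placed under number 4 of the block, an alternative chosen after seeing the data (−0.90 each time). In a fit of only WT and *Cilk1*-/- the adjusted p was 0.000866, and the call was kept. Leaving out single libraries gave −0.94 to −0.83, with adjusted p of 0.05 or more in 8 of 11 fits and 0 or 1 of the 6 genes called. In the compound mutant its adjusted p was 0.0576 in a fit of only the 2 genotypes (−1.43), 0.0850 with the protocol text (−1.43) and 0.470 with the number 4 block (−1.43), and 0 of the 6 genes were called in these, whereas all 11 fits without one library kept the call (−1.61 to −1.13). Members called in *Cilk1*-/- were 0 with the replicate block, the protocol text and the number 4 block. Apart from these calls and the pathway calls named above, the replicate block changed no call of the 6 genes.

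Between the mutants, *Smo* turned to −0.0021 with the protocol text and with the number 4 block and −0.020 with quantile normalization, and single libraries left out gave −0.025 to 0.041 for *Smo*, −0.050 to 0.030 for *Sufu* and −0.24 to 0.023 for *Gli2*. In *Cilk1*-/-, *Kif7* ranged from −0.025 to 0.0072 in those fits. The cause was not tested. None of the *Gli1* differences from the other genes reversed in the alternatives run, and with a pseudocount of 0.1 all 11 called kept their call. In *Cilk1*-/- the adjusted p of the 5 was 0.0429 without any one *Cilk1*-/- library and 0.0714 without any one WT library. Both are the smallest exact p of 4 libraries against 3 (0.0286) adjusted over the 15 tests, and they differ only in how many other tests are at that value, so they do not show a dependence on the WT libraries. Leaving out a library in the comparisons with the compound mutant, or swapping within numbers, cannot give an exact p under 0.05 (smallest 0.0667, 0.1 and 0.125), so those fits say nothing about the calls.

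The count of all genes called moved most. From 62 in *Cilk1*-/-, 209 in the compound mutant and 91 between the mutants it went to 130, 34 and 1 in fits of only the 2 genotypes, to 4, 26 and 2 with the replicate block, to 37, 18 and 1 with the protocol text, to 123, 547 and 294 with a pseudocount of 0.1, to 4, 0 and 0 with the number 4 block, and to 409, 1102 and 558 with no minimum fold change. With an adjusted p under 0.1 it was 325 in the compound mutant and 172 between the mutants. Without single libraries it was 15 to 95, 80 to 671 and 36 to 360. Depth is unknown, so its limits could not be given.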
